A study of Mus musculus with 3 samples.

Results

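A set of 8 neuroblast genes was followed across single cells of injured and uninjured mouse brain: Dcx, Dlx1, Dlx2, Dlx6os1, Sp9, Gsx1, Neurod1 and Tac2. They are 8 of the 55357 genes in the deposited matrices, and were listed by name because earlier results of these data showed them in neuroblasts, so their levels are given as a description. Dlx1, Dlx2, Dlx6os1, Sp9 and Gsx1 stood for an interneuron fate, Neurod1 and Tac2 for other fates, and Dcx for migrating neuroblasts in general. The cells came from brain tissue around the lesion on the left side, taken from male mice of strain C57BL/6 aged 6 to 8 weeks. The study had 3 libraries, 1 per group: sham, traumatic brain injury (TBI) followed by phosphate-buffered saline for 3 days (TBI+PBS), and TBI followed by interleukin-25 (TBI+IL-25). Each TBI+IL-25 mouse received 1 µg of the cytokine no later than 30 minutes after injury and then a dose each day for 3 days. The number of animals behind a library, the sham operation and the way the injury was made are not given in the sources used here. Cerebral tissue was cut up, digested with enzymes and depleted of red and dead cells before loading, so the cells are those that survive dissociation. With 1 library per group, each difference below is between libraries and not between conditions, and every interval is a 95% interval that covers counting error only.

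Neuroblasts are immature neurons that leave the ventricular-subventricular zone, or arise in the dentate gyrus, and migrate or settle as they differentiate. In the ventral lineage, homeobox factors of the Gsx and Dlx families act in progenitors and their progeny, zinc-finger factors such as Sp9 act later, and most of the cells become GABAergic interneurons of the olfactory bulb. Excitatory lineages of the dorsal forebrain instead pass through Neurog2, Eomes, Neurod1 and Tbr1, and use vesicular glutamate transporters.

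Promoter sequence was read for the members whose window just upstream of the start was free of annotated exons, to show the members that share cells beside Tac2. The windows run from 200 to 11 bases before the RefSeq start and are given 5′ to 3′ on the gene's strand, from RefSeq on GRCm38.p6, whereas the counts were made on GRCm39. They are chr2:71546765-71546954 on the minus strand for Dlx2, chr2:73271726-73271915 on the plus strand for Sp9, chr6:6861694-6861883 on the minus strand for 1 of the Dlx6os1 starts, chr5:147188496-147188685 on the plus strand for Gsx1 and chr10:127724278-127724467 on the plus strand for Tac2. Capitals mark matches to any of the 3 motifs searched.
Dlx2: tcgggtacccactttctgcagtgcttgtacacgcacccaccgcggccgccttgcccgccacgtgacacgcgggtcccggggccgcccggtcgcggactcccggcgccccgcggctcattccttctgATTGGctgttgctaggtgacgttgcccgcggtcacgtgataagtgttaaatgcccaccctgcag
Sp9: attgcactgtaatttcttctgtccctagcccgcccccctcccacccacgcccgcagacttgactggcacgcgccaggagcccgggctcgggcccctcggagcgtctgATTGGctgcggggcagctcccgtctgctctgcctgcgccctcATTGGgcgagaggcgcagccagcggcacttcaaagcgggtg
Dlx6os1: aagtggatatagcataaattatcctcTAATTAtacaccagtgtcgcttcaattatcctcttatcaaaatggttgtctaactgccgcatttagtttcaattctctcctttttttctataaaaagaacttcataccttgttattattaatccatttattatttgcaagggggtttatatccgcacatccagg
Gsx1: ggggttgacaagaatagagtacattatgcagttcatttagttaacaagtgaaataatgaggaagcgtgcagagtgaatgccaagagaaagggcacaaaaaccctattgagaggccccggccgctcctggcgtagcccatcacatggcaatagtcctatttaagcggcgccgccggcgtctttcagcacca
Tac2: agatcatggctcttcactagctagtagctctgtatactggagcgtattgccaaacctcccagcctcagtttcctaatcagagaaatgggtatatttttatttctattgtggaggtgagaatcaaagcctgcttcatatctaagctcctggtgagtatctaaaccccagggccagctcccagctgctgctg
The motifs were CAGATG, an E-box of the kind bound by Neurod1, TAATTA, a homeodomain core, and CCAAT, each on both strands. The first 2 were chosen from the members' roles. CCAAT was added after the sequences had been read, so its matches are no independent result. CAGATG was in 0 of the members' 10 windows, against 11.2% of 32851 RefSeq promoters. TAATTA was in 4 of 10 windows, of Dcx and Dlx6os1 with 2 starts each, against 3.67%. CCAAT was in 3 of 10 windows, of Dlx2, Sp9 and 1 Dcx start, against 28.5%. The 5 windows that overlapped an exon, of Dcx, Dlx1, Neurod1 and a Dlx6os1 start, are not printed. A match is a run of letters and does not show that a factor binds there.

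The libraries held 39536447 UMIs (unique molecular identifiers, 1 per captured RNA molecule) over 8939 barcodes for sham, 58148289 over 10643 for TBI+PBS and 61372408 over 14222 for TBI+IL-25. Between 24 and 39 barcodes were shared by any pair of libraries, and 0 of them were neuroblast-like in both. Clustering was done without the members and without the genes of the fate lists. It gave 1 cluster with all 10 neuroblast markers, which was called neuroblast-like. This class held 250 sham cells (2.88%, Clopper-Pearson interval 2.53 to 3.25%), 265 TBI+PBS cells (2.57%, 2.27 to 2.89%) and 142 TBI+IL-25 cells (1.05%, 0.886 to 1.24%). Its median depth was 6347, 5306 and 4702 UMIs per cell. Mature neuron markers summed to only 120, 160 and 96.0 CPM (UMIs of a gene or list scaled to a common class total) in it, against 10547, 11389 and 8911 CPM for the neuroblast markers. Microglia markers summed to 1769, 1482 and 560 CPM and astrocyte markers to 964, 1239 and 1664 CPM, so RNA of glia stood at different levels in the 3 libraries. The summed Dlx1, Dlx2, Dlx6os1 and Sp9 of TBI+IL-25 stood at 0.770 times TBI+PBS. Without the sub-cluster highest in the microglia gene P2ry12, this sum stood at 0.740 times. With the microglia-like level of each gene subtracted, it stood at 0.771 times. Those microglia-like levels were at most 0.755 CPM in TBI+PBS and 0.322 CPM in TBI+IL-25, against at least 709 and 560 CPM in the class. Subtracting them could thus hardly move the ratio, and does not test the part of microglia RNA in the class. The part of astrocyte RNA was not tested.

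The members were nearly confined to this class in summed counts. Its share of a member's UMIs in kept cells ran from 88.7% for Neurod1 and 90.7% for Gsx1 to 97.7% for Tac2 and 97.9% for Dlx6os1. The 8 Neurod1 UMIs elsewhere lay in 7 cells, and the other 2 Tac2 UMIs in 2 cells.

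Dcx (ENSMUSG00000031285) encodes doublecortin, a microtubule-binding protein of migrating immature neurons. Its level was 489 CPM (458 to 520) for sham, 587 CPM (553 to 624) for TBI+PBS and 609 CPM (556 to 664) for TBI+IL-25. Sham was the lowest, and the intervals of the injured libraries overlapped. The ratio to sham was 1.20 (1.10 to 1.31) for TBI+PBS and 1.25 (1.12 to 1.39) for TBI+IL-25, and TBI+IL-25 over TBI+PBS was 1.04 (0.930 to 1.15). No UMI count of Dcx in a single cell exceeded 16, and 79.2%, 84.2% and 81.0% of cells held it.

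Dlx1 (ENSMUSG00000041911) and Dlx2 (ENSMUSG00000023391) are neighbouring homeobox genes of ventral forebrain progenitors and interneurons. Dlx1 stood at 727 CPM (690 to 766) for sham, 709 (671 to 749) for TBI+PBS and 594 (542 to 649) for TBI+IL-25. Dlx2 stood at 861 CPM (821 to 903), 857 (815 to 901) and 657 (603 to 715). Both were lowest in TBI+IL-25, and sham and TBI+PBS overlapped for both.

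Dlx6os1 (ENSMUSG00000090063) is a long noncoding RNA of the Dlx5 and Dlx6 locus, read antisense to Dlx6. Its level was 950 CPM (908 to 994) for sham, 1004 (958 to 1051) for TBI+PBS and 717 (660 to 777) for TBI+IL-25. Whether the counting used strand is not given in the sources used here, so reads of Dlx6os1 and Dlx6 may not be separable, and neither may Dlx1 and its antisense gene Dlx1as. Sp9 (ENSMUSG00000068859), a zinc-finger factor of the same lineage, stood at 751 CPM (713 to 790), 712 (673 to 752) and 560 (510 to 613).

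The 4 genes moved together between libraries. Their sum in TBI+PBS was 0.998 times that in sham (0.963 to 1.03), which is no difference beyond counting error. In TBI+IL-25 it was 0.770 times TBI+PBS (0.732 to 0.810) and 0.768 times sham (0.731 to 0.807). These comparisons share libraries and are not independent of each other. Whether the make-up of the class bears on these ratios was not tested. Its sub-clusters are described below with sizes over the 3 libraries together, and their sizes by library are not reported here. Single genes of TBI+IL-25 over sham ranged from 0.746 for Sp9 to 0.817 for Dlx1, and none of the 4 passed the 2-fold rule used for calls below. The median log2 ratio of all 10352 genes tested in that comparison was -0.093. With each cell thinned to 2000 UMIs, which left out 33, 29 and 13 cells, the share of cells with Dlx1 was 72.8% for sham (66.4 to 78.6%), 70.3% for TBI+PBS (64.1 to 76.1%) and 58.9% for TBI+IL-25 (49.9 to 67.5%). For TBI+IL-25, the thinned shares of Dlx2, Dlx6os1 and Sp9 were 66.7% (57.8 to 74.7%), 65.9% (57.0 to 74.0%) and 56.6% (47.6 to 65.3%). They were 73.7%, 71.4% and 70.0% for sham and 71.6%, 72.9% and 71.2% for TBI+PBS. For each of the 4 genes the intervals of the 3 libraries overlapped. Without thinning the Dlx1 shares were 85.6%, 78.9% and 79.6%, and in microglia-like cells, at median depths of 3914, 4745 and 4731 UMIs, they were 0.702%, 0.217% and 0.163%.

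**Figure D1:**
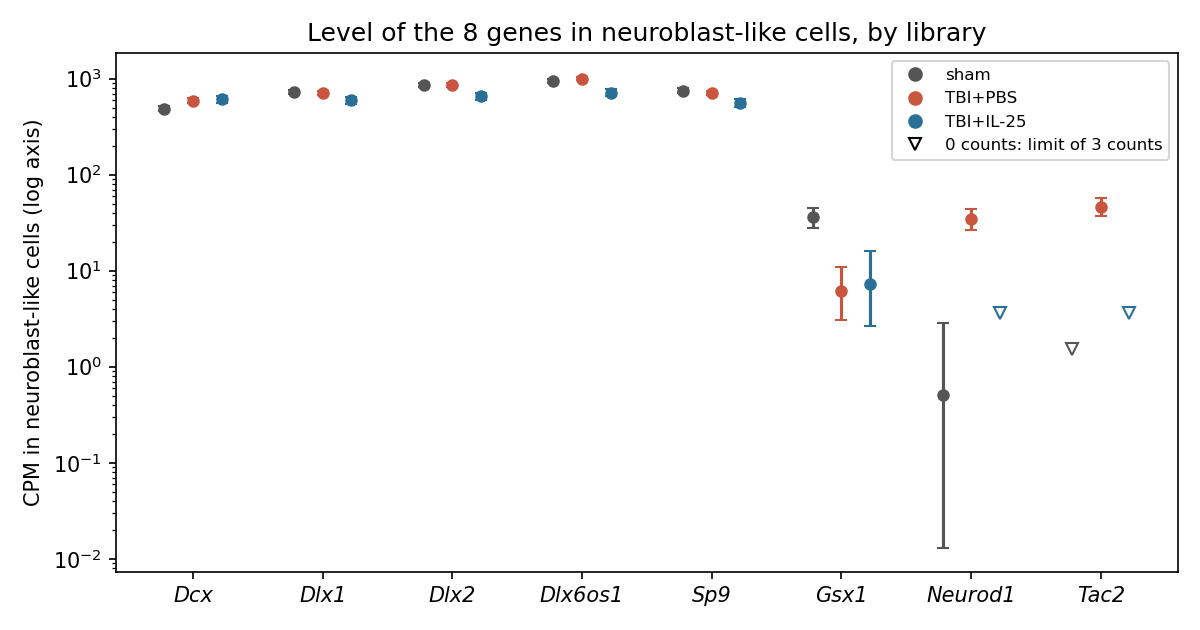
Level of each gene in neuroblast-like cells as CPM on a log axis, 1 point per library with its exact 95% Poisson interval; open triangles mark the limit of 3 counts where 0 were found. Dcx and the 4 abundant interneuron genes sit between 489 and 1004 CPM in every library, Gsx1 is highest in sham, and Neurod1 and Tac2 are high in TBI+PBS.

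Gsx1 (ENSMUSG00000053129), a homeobox gene of ventral progenitors, was far less abundant. It had 71 UMIs in 18 sham cells, 11 in 6 TBI+PBS cells and 6 in 4 TBI+IL-25 cells, which is 36.0 CPM (28.1 to 45.4), 6.10 CPM (3.05 to 10.9) and 7.29 CPM (2.67 to 15.9). Sham lay above both injured libraries, which overlapped. The ratio to sham was 0.170 (0.0810 to 0.322) for TBI+PBS and 0.203 (0.0719 to 0.463) for TBI+IL-25. The UMIs of 1 cell are not independent draws: 19 and 13 of the 71 sham UMIs came from 2 cells. Counted by cells, the share with Gsx1 was 7.2% for sham (4.32 to 11.1%), 2.26% for TBI+PBS (0.835 to 4.86%) and 2.82% for TBI+IL-25 (0.773 to 7.06%), and these intervals overlap. With doublets kept, the ratio of TBI+IL-25 to sham was 0.443, and 9 further Gsx1 UMIs of that library lay in left-out barcodes. Cells with Gsx1 were deep, at a median of 12499 UMIs against 5622 in cells without it. Of the 28, 23 held Dlx1 or Dlx2 but only 10 held Dlx6os1 or Sp9, and 20 held the proliferation gene Mki67.

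Neurod1 (ENSMUSG00000034701), a basic helix-loop-helix factor that drives differentiation in excitatory lineages, was found in 1 sham cell (1 UMI), 9 TBI+PBS cells (62 UMIs) and 0 TBI+IL-25 cells. The levels were 0.507 CPM (0.0128 to 2.82), 34.4 CPM (26.4 to 44.1) and 0, with a limit of 3.64 CPM. Tac2 (ENSMUSG00000025400), which encodes neurokinin B, had 0 UMIs in sham (limit 1.52 CPM), 84 UMIs in 4 TBI+PBS cells (46.6 CPM, 37.2 to 57.7) and 0 in TBI+IL-25 (limit 3.64 CPM). The UMIs per Tac2 cell were 35, 28, 20 and 1.

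Summed UMIs put TBI+PBS above sham 67.9-fold for Neurod1 (11.7 to 2723) and at least 30.7-fold for Tac2. TBI+IL-25 stood at no more than 0.106 times TBI+PBS for Neurod1 and 0.0782 times for Tac2. These folds rest on very few cells. Without the cell of most UMIs in each library, the TBI+PBS to sham fold was at least 14.3 for Neurod1 and at least 18.0 for Tac2, and with doublets kept it was 15.7 for Neurod1 and 21.2 for Tac2. Counted by cells, the Neurod1 share was 0.400% for sham (0.0101 to 2.21%) and 3.40% for TBI+PBS (1.56 to 6.35%), with 0 of 142 cells for TBI+IL-25 (up to 2.56%), so the intervals of the 3 libraries overlap. Tac2 was in 1.51% of TBI+PBS cells (0.413 to 3.82%), 0 of 250 sham cells (up to 1.46%) and 0 of 142 TBI+IL-25 cells (up to 2.56%), which overlap as well. The difference in these shares was not itself tested, since cells of 1 library are not replicates.

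The doublet threshold bears directly on the sham value. A sham barcode of 8162 UMIs, left out at a score of 0.208 against the threshold of 0.2, held 3 Neurod1 and 4 Tac2 UMIs, with 6 of Eomes, 3 of Slc17a6, 7 of Calb2 and 0 of Dlx1, Dlx2, Dlx6os1 and Sp9. Just inside the threshold, a TBI+PBS cell at 0.197 held 1 Neurod1 UMI.

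Single cells kept the 2 sets of genes apart. Of the 657 neuroblast-like cells, 428 (65.1%) held all of Dlx1, Dlx2, Dlx6os1 and Sp9, and 53 (8.07%) held none of them. Of the cells with Dlx1, 90.7% also held Dlx2, and of those with Sp9, 95.7% held Dlx6os1. The share holding all 4 was 68.8% for sham (62.7 to 74.5%), 67.2% for TBI+PBS (61.2 to 72.8%) and 54.9% for TBI+IL-25 (46.4 to 63.3%). Dcx went with them: 522 of 536 Dcx cells held at least 1 of the 4.

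The 10 Neurod1 cells held 0 UMIs of the 4 interneuron genes among 76219 UMIs in all, a limit of 39.4 CPM, against 3411 CPM in TBI+PBS neuroblast-like cells without Neurod1. That is 0 of 10 cells with any of the 4 (up to 30.8%), against 604 of 647 cells without Neurod1 (93.4%, 91.2 to 95.1%). The Neurod1 cells were the deeper ones, at a median of 8155 UMIs against 5699 in the others. The 4 Tac2 cells all held Neurod1 too, at 5, 8, 10 and 10 UMIs. The cell with the most Neurod1, 23 UMIs, had 0 of Tac2.

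Genes of the excitatory lineage were also found in these 10 cells, but not only there. Eomes, a factor of intermediate progenitors, was in 8 of them and Tbr1, a factor of early excitatory neurons, in 7. Slc17a6, a vesicular glutamate transporter, was in 6 and Emx1, a dorsal forebrain homeobox gene, in 5. In the whole class these 4 genes were in 23, 11, 11 and 9 cells. Of Eomes, the 10 cells held 37 UMIs, against 63, 56 and 3 in the class of sham, TBI+PBS and TBI+IL-25. Prox1, a factor of dentate granule cells and of some interneurons, was in 8 of the 10, Rbfox3, which encodes the neuronal marker NeuN, in 8, and Dcx in 8. Over all 657 neuroblast-like cells, Prox1 was in 314, Rbfox3 in 42 and Dcx in 536. Dcx in 8 of 10 was thus near its share of the class. Gad1, Dlx5 and Sp8, genes of GABAergic cells, were in 0 of the 10, and Gad2 in 2. In the whole class, Gad1 was in 318 cells and Gad2 in 407. Cells of this kind were not only those with Neurod1: the 11 Tbr1 cells and the 11 Slc17a6 cells also held 0 of the 4 interneuron genes. Eomes and Emx1 were not apart in this way, since 10 of 23 Eomes cells (43.5%, 23.2 to 65.5%) and 1 of 9 Emx1 cells held at least 1 of the 4. In sham, Eomes had 33 UMIs in 4 cells without any of the 4 and 30 UMIs in 7 cells with them. In TBI+PBS it had 44 UMIs in 9 cells without and 12 UMIs in 2 cells with them, and in TBI+IL-25 its 3 UMIs lay in 1 cell with them.

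**Figure D2:**
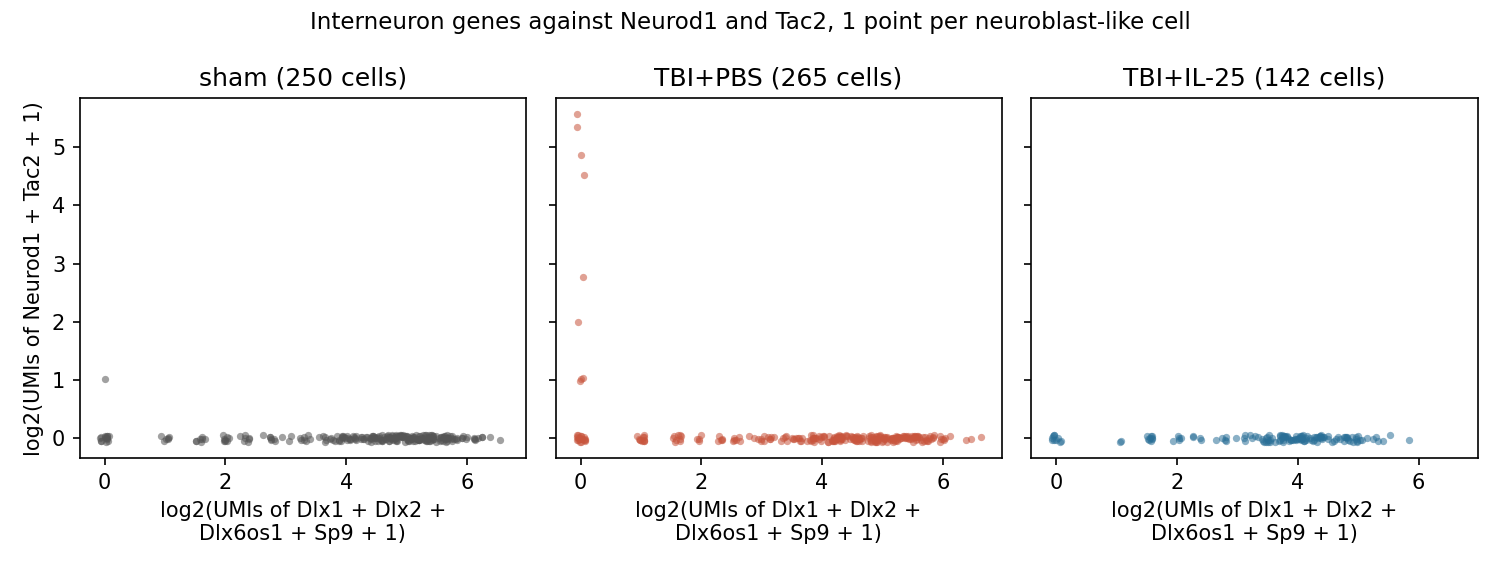
Each point is 1 neuroblast-like cell, with log2 of its summed Dlx1, Dlx2, Dlx6os1 and Sp9 UMIs plus 1 on the x axis and log2 of its summed Neurod1 and Tac2 UMIs plus 1 on the y axis, jittered slightly. The 10 cells above 0 on the y axis, 9 of them in TBI+PBS, all sit at 0 on the x axis.

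The fate lists were counted in neuroblast-like cells over genes with at least 20 UMIs in the libraries compared, where a call is a ratio of at least 2-fold with its interval outside 1. These calls are no test, and they do not account for UMIs that share a cell. For TBI+PBS over sham, 2 of 8 members were called higher (Neurod1 and Tac2) where 1.71% of all genes were, and 1 was called lower (Gsx1) where 0.946% were. The members were chosen with this comparison known, so nothing is read from those counts. Of 25 interneuron genes, 22 were tested, 0 were called higher and 1 lower, which was Gsx1, with a median log2 ratio of 0.019 against 0.0056 for all genes. Gad1, which makes GABA, was 1.22-fold (1.03 to 1.44), and Dlx5, the homeobox partner of Dlx6, 1.10-fold (0.986 to 1.23).

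Of 19 excitatory and dentate granule genes, 13 were tested in that comparison, 6 were called higher and 0 lower, with a median log2 ratio of 0.32. Of all genes tested, 1.71% were called higher and 0.946% lower. The 6 were Neurod1, Neurog2, Emx1, Bhlhe22, Slc17a6 and Calb2. Neurod1 is a member chosen with this comparison known. Its 9 TBI+PBS cells held 16 of 17 Emx1, 11 of 24 Slc17a6 and 27 of 51 Calb2 UMIs of that library. The 6 calls are thus not independent of each other. Neurog2, a proneural factor upstream of Neurod1, had 26, 56 and 0 UMIs in the order sham, TBI+PBS, TBI+IL-25, a 2.36-fold ratio of TBI+PBS to sham (1.46 to 3.91). Slc17a6 had 5, 24 and 0 UMIs and a 5.25-fold ratio (1.97 to 17.6). Calb2, the calretinin gene of several neuron types, had 27, 51 and 6 UMIs and a 2.07-fold ratio (1.27 to 3.43). Eomes was not called, with 63, 56 and 3 UMIs and a ratio of 0.973 (0.667 to 1.42). Tac2 was the 1 gene tested of 17 tachykinins, receptors and other neuropeptides. Tacr3, the neurokinin B receptor gene, had 0 UMIs in all 3 libraries.

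For TBI+IL-25 over TBI+PBS, 0 of 7 tested members were called higher (2.22% of all genes) and 2 lower (4.67% of all genes), Neurod1 and Tac2. Of 21 interneuron genes tested, 1 was higher, the neuregulin receptor gene Erbb4 at 2.12-fold (1.49 to 3.03), and 0 were lower, with a median log2 ratio of -0.35 against -0.099 for all genes. Of 11 excitatory genes tested, 0 were higher and 6 lower, with a median of -1.81. Eomes, at 0.117-fold (0.0235 to 0.361), and Calb2, at 0.258-fold (0.0903 to 0.600), were among them. The 6 lower calls partly rest on the same TBI+PBS cells and are not independent. Of 13 progenitor and cycling genes tested, 2 were higher and 1 lower, with a median of 0.33. These were Egfr at 3.98-fold (3.08 to 5.18), Hes5 at 2.01-fold (1.37 to 2.94) and Nes at 0.353-fold (0.190 to 0.613). For TBI+IL-25 over sham, 0 of 6 tested members were called higher (2.92% of all genes) and 1 lower (4.88%), Gsx1, and Eomes was 0.114-fold (0.0229 to 0.349).

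The neuroblast-like cells split into 5 sub-clusters, numbered 0 to 4, also formed without the members. Sub-clusters 0 and 1 (225 and 156 cells) led with genes such as Stmn2, Tubb3, Foxp2 and Prokr2. Sub-cluster 2 (128 cells) led with cell cycle genes such as Ccnb1 and Cdk1, and sub-cluster 3 (119 cells) with Tac2, Neurod1 and Eomes. Sub-cluster 4 (29 cells) led with microglia genes such as Cx3cr1 and Csf1r. All libraries had cells in all 5.

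Dlx6os1 was highest in sub-clusters 0 and 1, at 1689 and 1764 CPM over the libraries, with 548 CPM in sub-cluster 2 and 200 CPM in sub-cluster 3. Dcx had the same order, at 888 and 1114 CPM against 328 and 207 CPM. Dlx2 in the cycling sub-cluster 2 was nearer to its level in sub-clusters 0 and 1, and its order differed between libraries. In sham it stood at 1054 and 1046 CPM in sub-clusters 0 and 1 and 890 CPM in sub-cluster 2, in TBI+PBS at 1077, 857 and 1149 CPM, and in TBI+IL-25 at 769, 491 and 726 CPM. Gsx1 had 48 UMIs in sub-cluster 3 and 32 in sub-cluster 2, with 7 in sub-cluster 4, 1 in sub-cluster 0 and 0 in sub-cluster 1. Of the Neurod1 cells, 9 of 10 lay in sub-cluster 3, as did all 4 Tac2 cells.

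The lower Dlx1 level of TBI+IL-25 was not uniform over sub-clusters, as values of sub-clusters 1 and 3 show. In sub-cluster 1, Dlx1 stood at 966 CPM (834 to 1113) for sham, 1017 (891 to 1155) for TBI+PBS and 520 (364 to 720) for TBI+IL-25. In sub-cluster 3, Dlx1 stood at 532 CPM (460 to 612), 298 (245 to 359) and 527 (435 to 633), so there TBI+PBS was the lowest. Whether the libraries differ by sub-cluster was not tested.

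**Figure D3:**
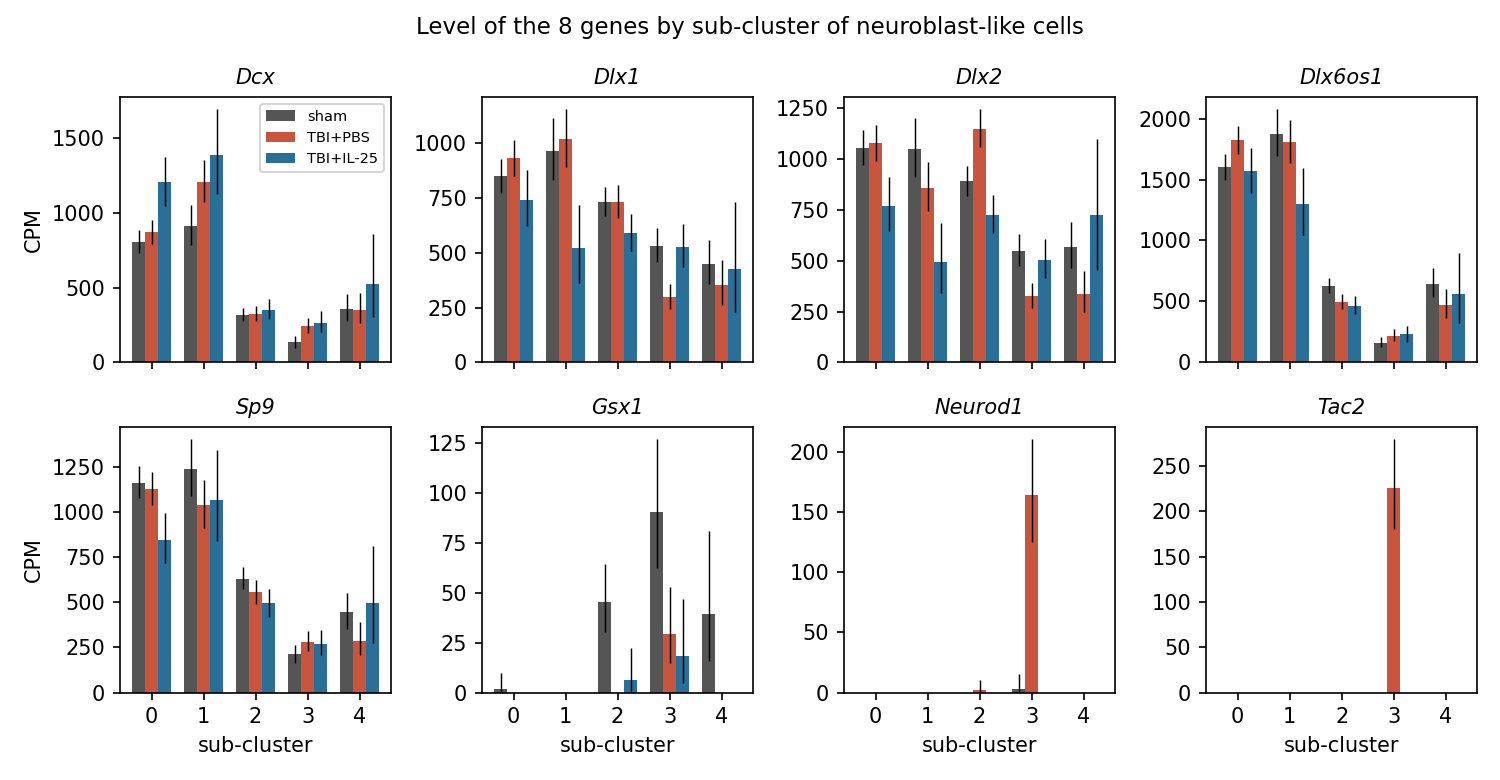
CPM of each gene in the 5 sub-clusters of neuroblast-like cells, bars coloured by library with exact 95% Poisson intervals, on linear axes that differ between genes. Dlx6os1 and Dcx are highest in sub-clusters 0 and 1, Gsx1 in sub-cluster 3, and nearly all Neurod1 and all Tac2 counts are in TBI+PBS cells of sub-cluster 3.

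Outside the class, Dlx2 was the member with the clearest level. In astrocyte-like cells it stood at 4.75 CPM (3.70 to 6.00) for sham, 4.39 (3.54 to 5.39) for TBI+PBS and 2.83 (2.16 to 3.63) for TBI+IL-25. In microglia-like cells it stood at 1.33 CPM (0.868 to 1.95), 0.755 (0.455 to 1.18) and 0.107 (0.0221 to 0.314). The astrocyte-like level was 3.57 times the microglia-like level in sham (2.25 to 5.84), 5.81 times in TBI+PBS (3.52 to 10.1) and 26.4 times in TBI+IL-25 (8.60 to 131). For Dlx1 the ratio was 1.36 in sham (0.832 to 2.24), 4.68 in TBI+PBS (2.30 to 10.5) and 5.18 in TBI+IL-25 (2.45 to 12.2), so it was above 1 beyond counting error in the injured libraries only. Dlx6os1 was not higher in astrocyte-like cells beyond counting error in any library, with ratios of 0.321 (0.128 to 0.710), 1.01 (0.486 to 2.08) and 1.30 (0.241 to 6.96). Of the 198 astrocyte-like cells with Dlx2, 178 held 1 UMI, 15 held Dlx1, 0 held Dlx6os1 or Sp9, and 1 held Dcx. The order of the astrocyte-like clusters differed between libraries, but the intervals of those led by Crym and by Hapln1 overlapped in each library. The sham value of the Crym cluster rests on 3 UMIs. In the cluster led by Crym and Six3, Dlx2 stood at 2.53 CPM for sham (0.521 to 7.39), 14.2 for TBI+PBS (7.77 to 23.8) and 5.92 for TBI+IL-25 (2.55 to 11.7). In that led by Hapln1 and Rmst it stood at 5.52 CPM (4.11 to 7.26), 9.40 (6.08 to 13.9) and 6.22 (3.31 to 10.6). A cluster led by Scrg1 and Fbxo2 was shallow, at a median of 792 UMIs. There Dlx2 stood at 9.49 CPM (3.08 to 22.1), 4.69 (1.28 to 12.0) and 3.19 (0.868 to 8.16). Its sham value, above those of the Crym and Hapln1 clusters, rests on 5 UMIs, and the 3 sham intervals overlap. In that led by Lcn2, which held only 2 sham cells, it stood at 0.374 CPM for TBI+PBS (0.00946 to 2.08) and 1.42 for TBI+IL-25 (0.292 to 4.14).

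**Figure D4:**
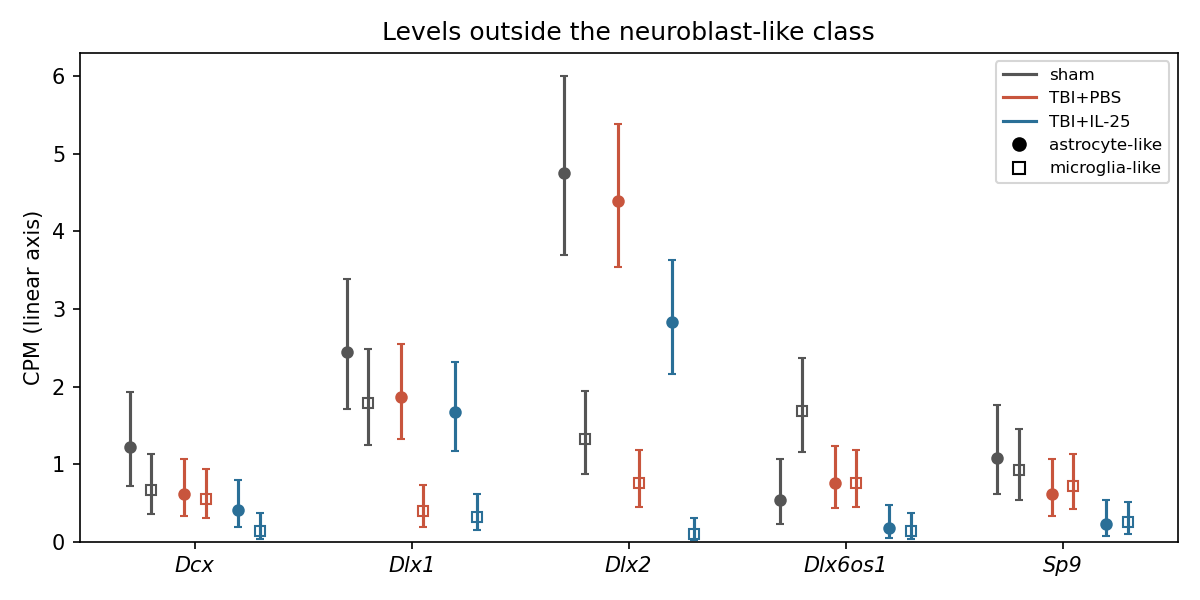
CPM of the 5 abundant members in astrocyte-like cells (filled circles) and microglia-like cells (open squares) of each library, with exact 95% Poisson intervals on a linear axis. Dlx2 in astrocyte-like cells lies above microglia-like cells in all 3 libraries, whereas Dlx6os1 and Sp9 do not.

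Genes with the pattern most like each member were ranked by Pearson correlation of log2(CPM + 1) over 29 class-by-library sums of at least 20 cells. Neurod1 and Tac2 were nearest each other at 0.97, followed for Neurod1 by Neurog2 at 0.84. Neurod1 and Tac2 stood at 34.4 and 46.6 CPM in neuroblast-like TBI+PBS. In no other sum did they exceed 0.507 and 0.890 CPM, so their match rests on that 1 sum. Dlx1 was nearest to Dlx5 (0.98), Dlx6os1 to Sp8 (0.98), Sp9 to Draxin (0.99), Dlx2 to Cplx1 (0.98), Dcx to Chga (0.98) and Gsx1 to Gm29260 (0.99). The sums share libraries, and 3 of them are neuroblast-like, so any gene found mainly in that class scores high.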

How the data were processed

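Single-cell RNA was measured in 3 libraries. The authors' deposited matrices hold raw UMI counts per gene and barcode. Per the file headers, Cell Ranger 7.1.0 made the sham and TBI+PBS matrices and Cell Ranger 7.2.0 the TBI+IL-25 matrix, a difference that cannot be told apart from the group. Tools listed by the submitters' processing notes are Seurat 4.4.0, bcl2fastq 5.0.1 and Cell Ranger 7.2.0, with the build GRCm39. Strand and intron settings are not given in the sources used here. The labels' protocols give 8000 expected cells per library.

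A filter of at least 500 UMIs, at least 300 genes and no more than 20% mitochondrial UMIs per cell removed 18, 43 and 55 barcodes. Doublets were scored with Scrublet in scanpy 1.11.5, and a score above 0.2, set after scores were seen, removed 229, 291 and 652, leaving 8692, 10309 and 13515 cells. Cells were clustered jointly on 2000 variable genes, 30 principal components and 15 neighbours with Leiden at resolution 1 (leidenalg 0.10.2), and sub-clustered at 0.5. Clusters were named by marker lists, 10 genes each. Each class of each library was summed over its cells and scaled to CPM, with exact Poisson intervals. Ratios have exact conditional binomial intervals and shares Clopper-Pearson intervals, all 95%. A fold against 0 used 3 counts per library and class. No test was made, since cells are not replicates. The ratio script was tested on simulated data.

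Members and lists were chosen with earlier results of these data known. The text names the 8 members, list genes by the interval bound nearest to 1, and the 5 genes most like each member; cell counts of other markers were chosen after values were seen. Promoter windows were shortened from 200 bases to bases 200 to 11 before the start, to keep off annotated exons (GENCODE M21). Alternatives tried were other scaling, doublets kept, resolutions 0.5 and 2, members kept in clustering, classes per cell, 1000 UMIs, 10% mitochondrial UMIs, equal weight of cells, subtraction of the microglia-like level, and 2 added after seeing the data: without the cell of most UMIs, and without the sub-cluster of microglia RNA. Values of some genes are not reported here.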

Additional observations from a re-analysis of the deposited data

Results flagged for a closer look

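A signal lay in barcodes the comparisons do not use. Tac2 had 4 UMIs in left-out barcodes of the sham library, all in 1 barcode with a doublet score of 0.208, whereas the 250 kept sham neuroblast-like cells held 0. That barcode also held 3 Neurod1 UMIs and 0 of Dlx1, Dlx2, Dlx6os1 and Sp9. Whether it is a doublet was not tested further.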

How the results depend on the processing

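No called result changed direction under any alternative run. Ratios whose intervals span 1 did cross it: Gsx1 of TBI+IL-25 over TBI+PBS went from 1.19 to 0.886 with cells weighed equally and to 2.83 with doublets kept, and the 4-gene sum of TBI+PBS over sham from 0.998 to at most 1.01 under 5 alternatives. Over the same pair, Dlx2 alone went from 0.995 to at most 1.01 and Dlx6os1 alone from 1.06 to 0.990 with doublets kept. Of the ratios of the 4-gene sum, Gsx1, Neurod1, Tac2 and Dcx under each alternative, 150 stayed within the main interval and 6 moved out of it. With doublets kept, the 4-gene sum of TBI+PBS over sham was 0.949 and Tac2 was 21.2-fold, the latter because the left-out sham barcode returns. Without the cell of most UMIs in each library, chosen after seeing the data, Tac2 of TBI+PBS over sham was at least 18.0-fold, and TBI+IL-25 over TBI+PBS stood at no more than 0.133 for Tac2 and 0.168 for Neurod1. With cells weighed equally, Dcx of TBI+IL-25 over sham was 1.41, and the cause was not tested. Among single genes and shares, 19 values moved and 164 did not. Of the former, 1 was Sp9 of TBI+IL-25 over TBI+PBS with cells weighed equally (0.890), and the others were shares of cells after thinning, which lowers them by construction. The number of cells limits Gsx1, Neurod1 and Tac2 most, since 28, 10 and 4 cells carry their counts. No paired analysis was possible because each group has 1 library, so no replicate could be left out either.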
